A study of Papio hamadryas with 11 samples.

Results

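The genes described here are 39 genes of erythroid cells and of heme synthesis: 8 heme synthesis enzymes, 2 biliverdin reductases, 14 red cell membrane and blood group proteins, 5 transcription factors and nuclear proteins, 4 receptors and mitochondrial carriers, and 6 cytosolic red cell proteins and ubiquitin ligases. They were chosen by name, and 19 of the 39 were measured, out of 10173 features measured on the arrays. A gene counted as measured when a probe annotated to its symbol had a detection p under 0.05 on at least 5 of the 11 arrays. The probe with the highest mean then stood for the gene. All levels are normalized probe intensities on the log2 scale, so a difference of 1 is a doubling. Probes differ in how well they bind, so no gene's level was set against that of another gene.

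The samples were livers of 11 baboon fetuses (Papio hamadryas) taken near term, at 165 days or 0.9 of gestation, and each liver's total RNA was hybridised to 1 human Illumina expression array. The 6 fetuses of control mothers are called CON1 to CON6 and the 5 fetuses of obese mothers MO1 to MO5. CON1 to CON3 and MO1 to MO3 were female, and the other 5 were male. The labels give no further treatment of the mothers.

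2 features of the study limit what these groups can show. The probes were designed on human sequence, and a mismatch to baboon RNA can leave a gene undetected. By the prefix of the array names, CON1 to CON4 lay on slide 1, and CON5, CON6 and all 5 maternal obese arrays on slide 2. Slide 1 therefore held controls alone, and it held 3 of the 6 females and 1 of the 5 males. Between 20.8% and 26.8% of the 48803 probes were detected per array, and median intensities ran from 62.0 to 65.6 on slide 1 and from 69.7 to 80.3 on slide 2.

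Heme is built from glycine and succinyl-CoA by a chain of enzymes that starts in the mitochondrion, passes through the cytosol and ends in the mitochondrion again. Red cell precursors make the first enzyme from their own gene, ALAS2, while hepatocytes and other cells use ALAS1. The fetal liver is a site of red cell production for much of gestation, before the bone marrow takes over, so a piece of it holds hepatocytes together with erythroblasts and other blood-forming cells. In RNA from a whole liver, fewer erythroid cells and less RNA per erythroid cell cannot be told apart.

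The red cell identity of the RNA could be read from part of the set only. Among the 39 genes, 35 had at least 1 listed probe. The other 4, the enzyme CPOX and the glycophorin genes GYPB, GYPC and GYPE, had none in the annotation and were not analysed here. Of the 16 genes that had a probe but were not measured, 8 were detected on no array: BLVRB, KEL, RHD, ERMAP, KLF1, EPOR, CA1 and HEMGN. KLF1 is a master regulator of erythroid genes and EPOR is the erythropoietin receptor, so defining erythroid markers were among the genes without signal. The other 8 were detected on 1 to 4 arrays: EPB41 on 4, ANK1 on 3, SLC4A1 and TAL1 on 2, and SPTB, EPB42, XK and TRIM10 on 1 each. EPB41 lay just outside the limit of 5 arrays, and RHCE and GATA1, detected on 5 arrays each, lay just inside it. Only 2 of the 14 membrane and blood group genes were measured, RHAG and RHCE. Of the 19 measured genes, 16 were detected on all 11 arrays, and BPGM on 10, all but MO4. In the haemoglobin list, 8 of 10 genes were measured, and the fetal chain gene HBG2, shown here as a marker of fetal red cells, had a control mean of 14.28 ± 0.44 (SD, n = 6) and a maternal obese mean of 14.46 ± 0.23 (SD, n = 5), so erythroid RNA was present in both groups.

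The erythroid genes varied more from fetus to fetus than most of the liver's transcripts. ALAS2, the erythroid first enzyme of heme synthesis, had levels of 11.01, 7.90, 7.24 and 9.26 on CON1 to CON4, of 10.56 and 9.16 on CON5 and CON6, and of 8.57, 10.45, 10.05, 9.45 and 9.36 on MO1 to MO5. From CON3 to CON1 that is a 13.7-fold range, both ends of it in control fetuses, and the maternal obese fetuses lay between them. In raw intensity units, before background correction, the same arrays read 216 and 1916. ALAS1, the enzyme's housekeeping form, had levels of 6.76, 6.79, 6.23 and 6.53 on CON1 to CON4, of 7.10 and 6.74 on CON5 and CON6, and of 7.0, 6.91, 6.52, 7.01 and 6.81 on MO1 to MO5. Its range was 1.83-fold. A second, fainter ALAS2 probe, detected on all 11 arrays, ran only from 5.55 to 7.01 and correlated with the probe used at 0.807, so the width of the ALAS2 range depends on the probe.

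3 other erythroid genes had wide spreads as well. AHSP, a chaperone of free alpha-globin, stood at 10.59, 8.10, 6.90 and 8.39 on CON1 to CON4, at 10.65 and 9.41 on CON5 and CON6, and at 8.21, 10.03, 9.58, 8.80 and 9.01 on MO1 to MO5. RHAG, the membrane glycoprotein that carries the Rh blood group proteins, stood at 9.33, 6.51, 5.90 and 7.48 on CON1 to CON4, at 9.44 and 7.92 on CON5 and CON6, and at 6.86, 8.91, 8.48, 7.88 and 7.90 on MO1 to MO5. NFE2, a subunit of a transcription factor of globin and platelet genes, stood at 8.28, 6.28, 6.02 and 6.89 on CON1 to CON4, at 8.32 and 7.23 on CON5 and CON6, and at 6.73, 8.15, 7.66, 7.07 and 6.97 on MO1 to MO5. In all of them CON1 and CON5 were the highest arrays, CON3 was the lowest and CON2 the next lowest, and within the maternal obese group MO2 was the highest and MO1 the lowest. The ranges were 11.6-fold for RHAG and 4.90-fold for NFE2. SLC25A37 (mitoferrin), which carries iron into the mitochondria of erythroblasts, followed with 7.53, 6.12, 6.13 and 6.71 on CON1 to CON4, 7.94 and 7.57 on CON5 and CON6, and 6.70, 7.61, 7.09, 7.29 and 6.88 on MO1 to MO5. There the lowest levels were those of CON2 and CON3, and the range was 3.51-fold.

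The SD over the 11 arrays was 1.15 for ALAS2, 1.14 for AHSP, 1.14 for RHAG and 0.78 for NFE2 on the log2 scale, against a median SD of 0.28 over all 10173 features. These 4 lay in the top 5% of features by SD, and 0.68% of features had a larger SD than ALAS2. Over the 19 measured genes the median SD was 0.44, and 14 of 19 lay above the median feature, a side on which 50% of features fall by construction. SLC25A37, CA2, TFRC, UROD, BPGM, PPOX and BLVRA followed, with between 6.84% and 19.0% of features having a larger SD. At the other end 74.4% of features had a larger SD than UROS, 72.9% than RHCE and 71.2% than FECH.

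**Figure D1:**
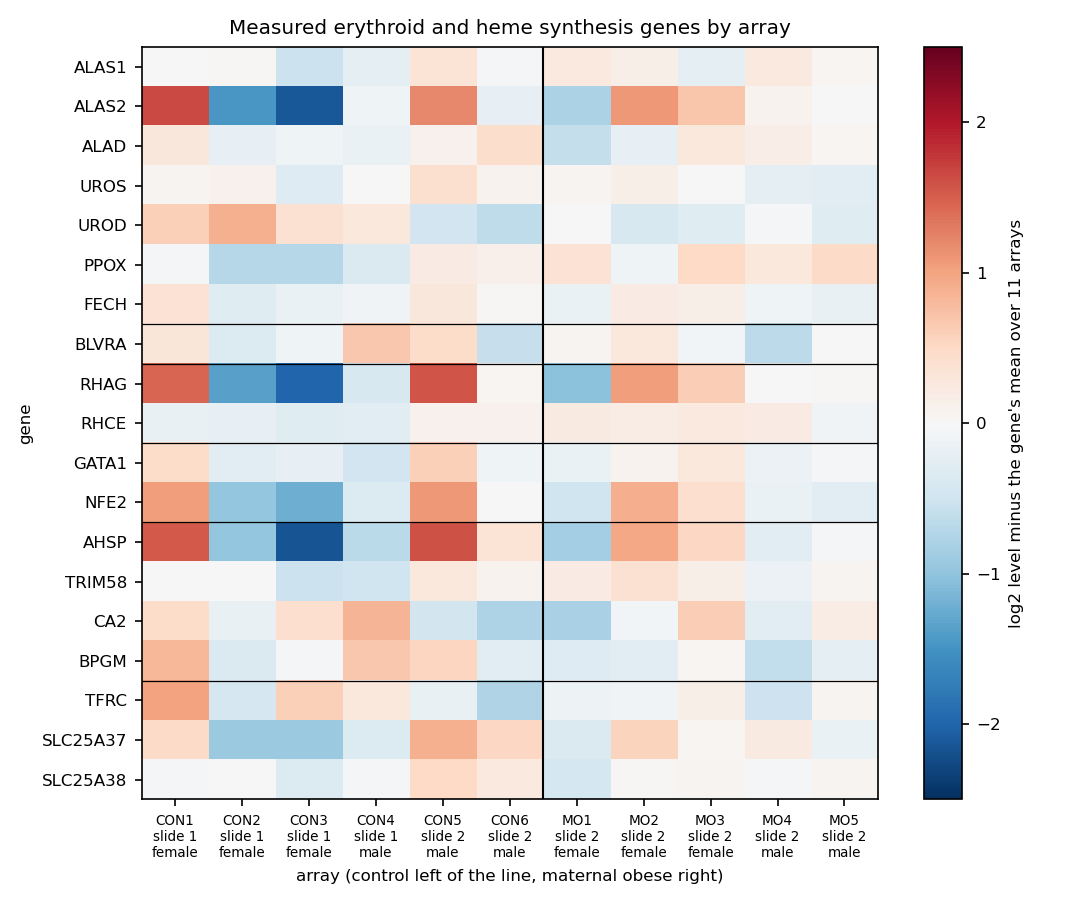
Each row is 1 of the 19 measured genes, grouped by role, and each column 1 array, and the colour gives the log2 level minus that gene's mean over the 11 arrays. ALAS2, RHAG, NFE2, AHSP and SLC25A37 carry the strongest colours, high on CON1 and CON5 and low on CON2 and CON3.

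The heat map of levels by array shows that the other heme synthesis enzymes had smaller amplitudes than ALAS2. FECH, ferrochelatase, which inserts iron in the last step, had levels of 10.37, 9.70, 9.84 and 9.93 on CON1 to CON4, of 10.29 and 10.03 on CON5 and CON6, and of 9.83, 10.22, 10.14, 9.90 and 9.81 on MO1 to MO5. It peaked on CON1 and CON5 as ALAS2 did, but its range was 1.59-fold. ALAD, which joins 2 molecules of aminolevulinic acid, had levels of 9.82, 9.34, 9.44 and 9.38 on CON1 to CON4, of 9.66 and 9.99 on CON5 and CON6, and of 8.95, 9.34, 9.81, 9.72 and 9.59 on MO1 to MO5. UROS, which closes the tetrapyrrole ring, had levels of 9.64, 9.69, 9.25 and 9.56 on CON1 to CON4, of 9.97 and 9.66 on CON5 and CON6, and of 9.64, 9.72, 9.56, 9.34 and 9.29 on MO1 to MO5. The ranges of ALAD and UROS were 2.05-fold and 1.65-fold, and neither gene had CON1 as its highest array.

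Genes of the set moved together to different degrees. Across the 11 arrays the Pearson correlation with ALAS2 was 0.984 for RHAG, 0.969 for NFE2 and 0.954 for AHSP, with Spearman values of 0.927, 0.936 and 0.927. These correlations are descriptions over 11 arrays that share 2 slides, the groups and one normalization. Among all 10172 other features 0.118% reached 0.9, and among the 18 other measured genes 3 did, with a median of 0.51 over the 18 and 0.07 over all features. SLC25A37 and FECH followed at 0.874 and 0.873, and GATA1, the erythroid and megakaryocyte transcription factor, at 0.740. GATA1 was faint, between 4.96 and 6.03, and detected on 5 of the 11 arrays, so many of its points lay at background. Over the 7 arrays of slide 2 alone the values were 0.975 for RHAG, 0.954 for NFE2, 0.918 for AHSP, 0.881 for FECH, 0.812 for GATA1 and 0.728 for SLC25A37. Without CON1 and CON3, the 2 arrays farthest from the median of ALAS2, they were 0.976 for RHAG, 0.958 for NFE2, 0.900 for AHSP, 0.914 for FECH, 0.731 for GATA1 and 0.846 for SLC25A37. The block of genes around ALAS2, picked by its correlations on these same arrays, kept high values within slide 2 and without CON1 and CON3. CON5, another high array, stayed in both subsets.

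**Figure D2:**
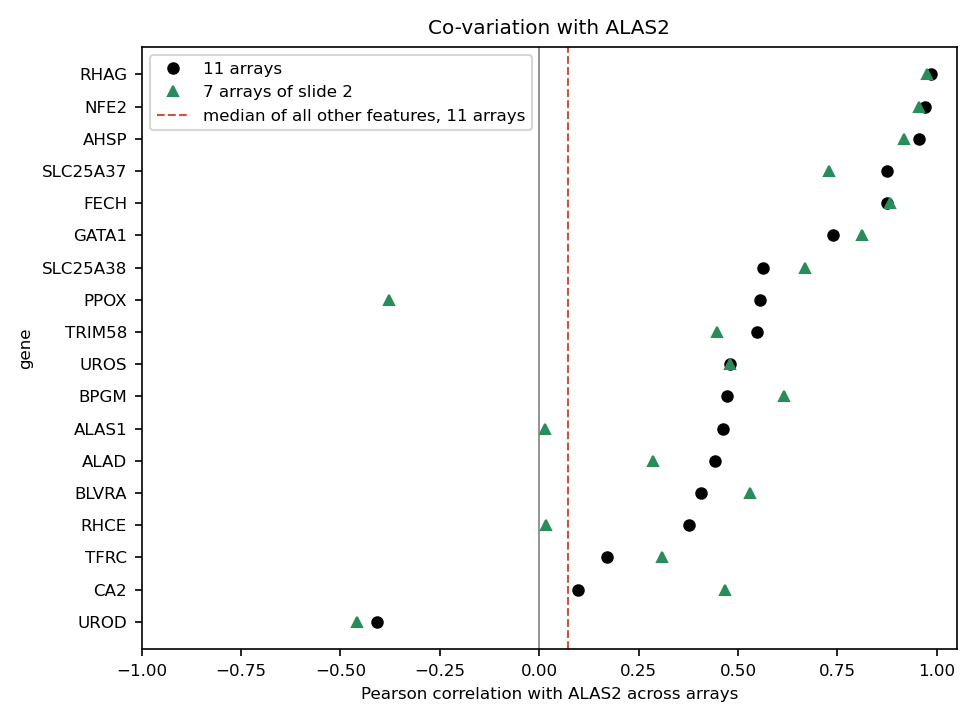
Each row is a measured gene, and its position on the horizontal axis is the Pearson correlation of its log2 levels with those of ALAS2, over 11 arrays (circles) and over the 7 arrays of slide 2 (triangles); the dashed line is the median of all other features. RHAG, NFE2 and AHSP stand above 0.9 in both, UROD below 0 in both, and PPOX changes sides.

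The plot of correlations with ALAS2 also shows the genes with low or unstable values. UROD, which removes carboxyl groups from uroporphyrinogen, correlated at -0.408 over 11 arrays and -0.459 within slide 2. PPOX, which oxidises protoporphyrinogen in the mitochondrion, correlated at 0.554 over 11 arrays and -0.378 within slide 2, and ALAS1 at 0.462 and 0.015. TFRC, the transferrin receptor, by which erythroblasts and other growing cells take up iron, correlated at 0.171 over 11 arrays and 0.310 within slide 2, and CA2, a carbonic anhydrase of red cells and other tissues, at 0.098 and 0.466. Over all 171 pairs of measured genes the median correlation was 0.41, and 0.27 within slide 2. For pairs among 1018 features taken at even steps through the list of all features it was 0.03 and 0.01. The lowest pair was UROD with PPOX at -0.69 over 11 arrays. UROD was lower and PPOX higher on slide 2, by -1.09 and 0.62 with condition as a covariate, and that pair value does not separate the slides. Among the 7 heme synthesis enzymes the median pair correlation was 0.28 over 11 arrays and -0.01 within slide 2, so their levels did not vary as 1 unit.

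Among marker lists of other cells, the myeloid list varied most like this block over the 11 arrays, but not within slide 2. A score, the mean over a list's genes of each gene's difference from its own 11-array mean, was taken for each list. The haemoglobin score correlated with ALAS2 at 0.984, and its arrays ran from -1.19 to 1.12 in controls and from -0.35 to 0.53 in maternal obese livers. The score of 5 neutrophil and myeloid progenitor genes, from a list of 8, correlated with ALAS2 at 0.837, and at 0.767 within slide 2. It ran from -0.79 to 0.89 in controls and from -0.62 to 0.46 in maternal obese livers. S100A9, a calcium-binding protein of neutrophils and monocytes shown for its abundance and chosen after its values were seen, read 12.80 on CON1 and 12.54 on CON5 against 9.92 on CON2 and 9.48 on CON3. PRTN3, a protease of myeloid granules, read 5.39 on CON1 and 5.32 on CON5 against 5.77 on CON6 and 5.72 on MO5. These levels were close to background, with signal in 3 controls and 3 maternal obese fetuses only, so they cannot show whether PRTN3 followed. ELANE, of the same list, was faint too, between 5.14 and 5.71. The widest ranges in the myeloid score were those of S100A9 and of MPO, a neutrophil peroxidase that ran from 6.18 to 9.73. The score therefore rested mostly on S100A9 and MPO. The hepatocyte score of 8 genes correlated with ALAS2 at -0.507 (-0.489 within slide 2) and the Kupffer cell score of 9 genes at -0.226 (-0.522 within slide 2). The lymphoid score of 3 genes correlated at 0.252 (0.079 within slide 2) and the proliferation score of 6 genes at 0.634 (0.587 within slide 2). Of 8 megakaryocyte and platelet markers 2 were measured, and PF4, PPBP, ITGA2B, GP9, GP1BB and ITGB3 were not. The score of those 2 correlated with ALAS2 at 0.511, and at 0.787 within slide 2, where it lay above the myeloid score. The part of these other cells in the spread of the erythroid genes was not tested.

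The first comparison of the study asked how the livers of fetuses of obese mothers differed from those of control mothers at this stage. None of the 19 measured genes passed limma's test between the conditions with Benjamini-Hochberg adjustment over all 10173 features, at a threshold of 0.05. The background of the comparison was the same, with 0% of features called and a smallest adjusted p of 0.201, while 1314 features, 12.9%, had an unadjusted p under 0.05. Of the 19 genes, 9 lay above 0 and 10 below, with a median difference of -0.0018 on the log2 scale against 0.05 over all features, of which 58.7% lay above 0. 3 of the 19 genes had an unadjusted p under 0.05, PPOX and RHCE higher and BPGM lower in maternal obese livers, a share of the set close to the background, where 9% of features were higher and 3.91% lower at that level. In no gene of the set did the 2 groups fail to overlap, against 1.43% of all features. The p-values measure the spread between these fetuses, and their number limits the precision.

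For the erythroid block the difference between conditions was small beside the spread within them. ALAS2 had a control mean of 9.19 ± 1.46 (SD, n = 6) and a maternal obese mean of 9.58 ± 0.72 (SD, n = 5), a difference of 0.39 with an SE of 0.60 (limma adjusted p = 0.778). AHSP averaged 9.0 ± 1.48 and 9.13 ± 0.70, a difference of 0.12 with an SE of 0.61. RHAG averaged 7.76 ± 1.44 and 8.01 ± 0.77, and NFE2 7.17 ± 0.97 and 7.32 ± 0.58. In each of these genes the maternal obese values fell inside the control range, and the control SD was the larger. SLC25A37 averaged 7.0 ± 0.79 and 7.12 ± 0.36 and FECH 10.03 ± 0.26 and 9.98 ± 0.19. The score over all 19 measured genes ran from -0.55 on CON3 to 0.54 on CON1 in controls and from -0.26 to 0.26 in maternal obese livers. Leaving out single fetuses moved the ALAS2 difference from -0.0013 to 0.75 without bringing it past the threshold.

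**Figure D3:**
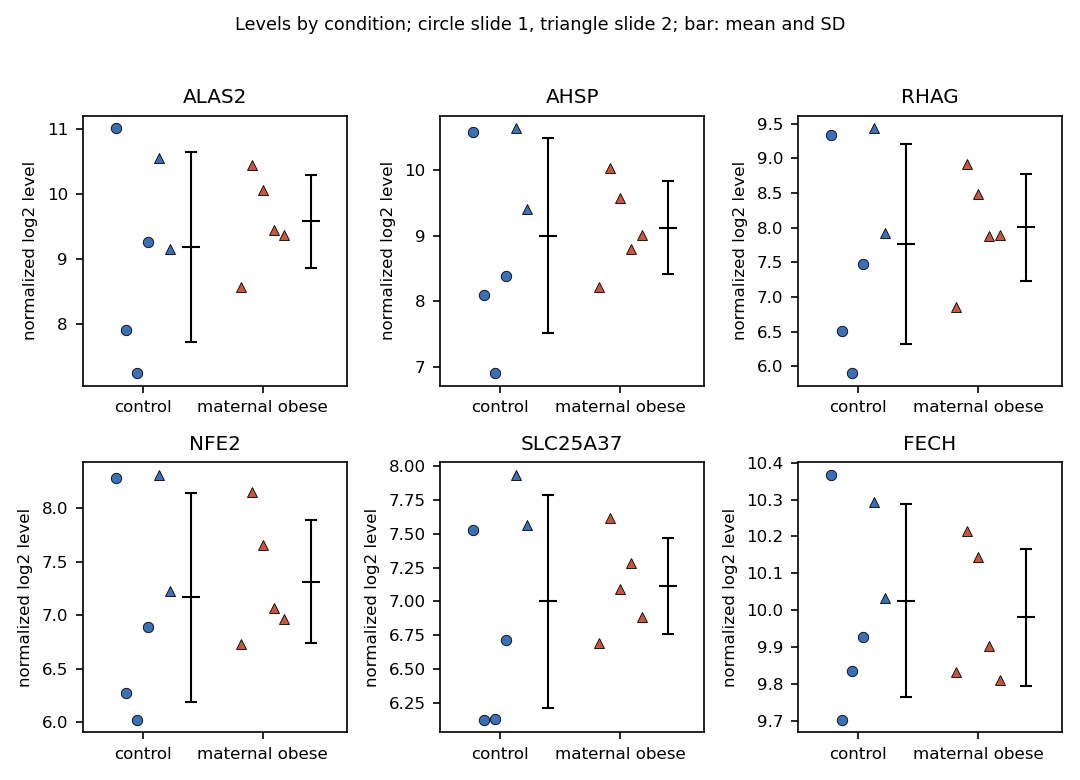
Points are the log2 levels of single fetuses for ALAS2, AHSP, RHAG, NFE2, SLC25A37 and FECH, with control and maternal obese fetuses side by side as circles for slide 1 and triangles for slide 2; bars give the group mean and SD (n = 6 and n = 5). The control points of ALAS2 and the genes that follow it spread around the maternal obese points, and in all 6 genes the groups overlap.

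The gene with the smallest p of the set was PPOX. It had levels of 7.59, 6.90, 6.90 and 7.26 on CON1 to CON4, of 7.83 and 7.74 on CON5 and CON6, and of 7.98, 7.51, 8.11, 7.87 and 8.10 on MO1 to MO5. The maternal obese mean of 7.91 ± 0.24 (SD, n = 5) lay above the control mean of 7.37 ± 0.41 (SD, n = 6), a 1.46-fold difference of 0.55 with an SE of 0.20, which did not pass (limma unadjusted p = 0.0152, adjusted p = 0.343). The 2 controls of slide 2 lay among the maternal obese arrays, above MO2, and the 4 controls of slide 1 below them or, for CON1, just above MO2. With slide as a covariate the difference was 0.13 with an SE of 0.21.

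BPGM makes 2,3-bisphosphoglycerate, which lowers the oxygen affinity of adult haemoglobin. Its levels were 6.75, 5.57, 5.88 and 6.59 on CON1 to CON4, 6.45 and 5.66 on CON5 and CON6, and 5.60, 5.66, 5.97, 5.31 and 5.68 on MO1 to MO5. CON1, CON4 and CON5 stood above every maternal obese fetus, and the other 3 controls did not. The means were 6.15 ± 0.51 (SD, n = 6) and 5.64 ± 0.24 (SD, n = 5), a difference of -0.50 with an SE of 0.22 (limma unadjusted p = 0.0423, adjusted p = 0.376). The maternal obese levels of BPGM lay near background, and MO4 was not detected. With slide as a covariate the BPGM difference was -0.41 with an SE of 0.32. In humans RHCE encodes the Rh C and E blood group antigens, and its probe may also bind the transcript of the near-identical neighbour RHD. Whether baboon liver holds such a second transcript was not tested. RHCE read 5.14, 5.13, 5.04 and 5.05 on CON1 to CON4, 5.43 and 5.44 on CON5 and CON6, and 5.56, 5.51, 5.57, 5.54 and 5.23 on MO1 to MO5, close to background throughout. It was detected on 1 of 6 control arrays and 4 of 5 maternal obese arrays, so the fitted difference of 0.28 (limma adjusted p = 0.369) is set against a control group mostly at background and is no measure of size. With slide as a covariate it was 0.05.

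Of the other genes with small p, UROD and TRIM58 had differences of opposite sign. TRIM58 is a ubiquitin ligase of late erythroblasts, shown in mouse cells to act on the motor protein dynein. It had levels of 6.46, 6.45, 5.92 and 5.96 on CON1 to CON4, of 6.70 and 6.54 on CON5 and CON6, and of 6.66, 6.83, 6.59, 6.31 and 6.53 on MO1 to MO5. The difference was 0.25 with an SE of 0.16, and CON3 and CON4 were the only arrays under 6. UROD differed by -0.37 with an SE of 0.25 (limma adjusted p = 0.498), and is described with the slides. For ALAS1 the difference was 0.16 with an SE of 0.15, for UROS -0.12 with an SE of 0.14, and for ALAD -0.12 with an SE of 0.18. For SLC25A38, the mitochondrial glycine carrier of heme synthesis, it was -0.12 with an SE of 0.16, and for TFRC -0.19 with an SE of 0.27. BLVRA, biliverdin reductase A, which turns the breakdown product of heme into bilirubin, ranged from 6.65 to 7.91 in controls and from 6.57 to 7.49 in maternal obese livers, a difference of -0.16 with an SE of 0.23. GATA1 ranged from 4.96 to 6.03 in controls and from 5.28 to 5.71 in maternal obese livers, and differed by -0.0018.

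**Figure D4:**
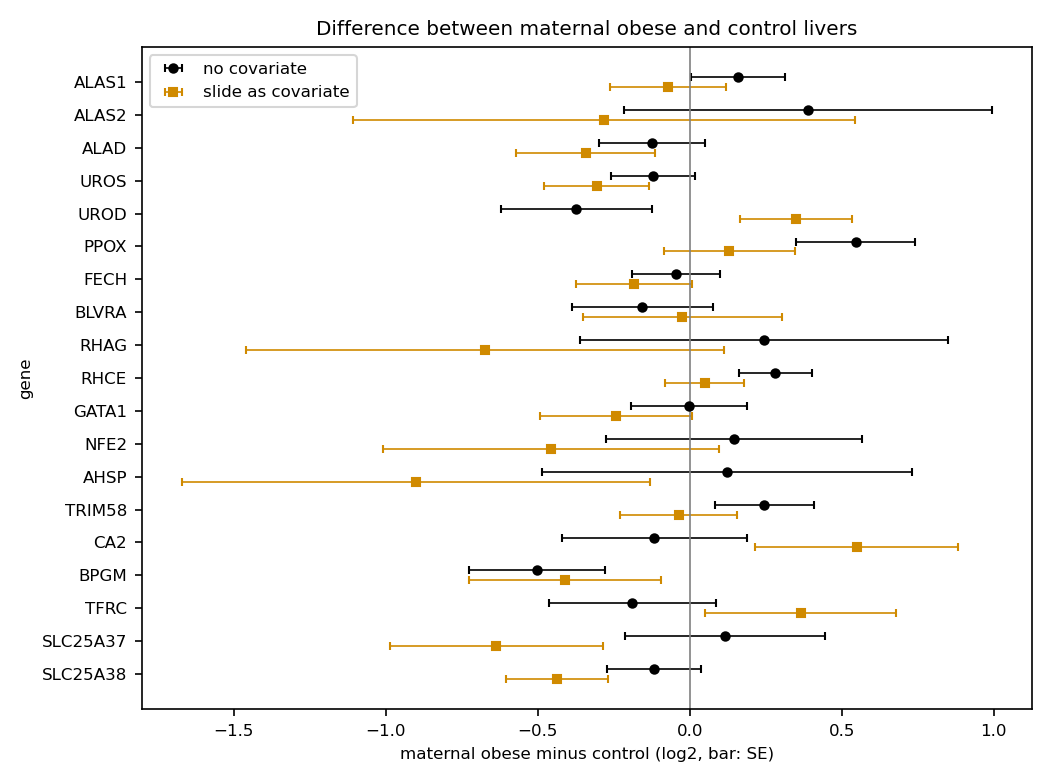
Each row is a measured gene, and the horizontal axis gives the maternal obese minus control difference on the log2 scale with its SE, from the fit with no covariate and from the fit with slide as a covariate. Between the fits ALAS2, RHAG, NFE2, AHSP and SLC25A37 move from right of 0 to left of it, and UROD, TFRC and CA2 from left to right.

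Slide changed the sign of the condition difference for several genes, as the plot of differences under both fits shows. With slide as a covariate the only controls left to set against the maternal obese fetuses are CON5 and CON6. ALAS2 then differed by -0.28 with an SE of 0.83, RHAG by -0.67, NFE2 by -0.46, AHSP by -0.90 and SLC25A37 by -0.64. ALAS1 and TRIM58 turned to -0.07 and -0.04, and UROD, TFRC and CA2 to 0.35, 0.36 and 0.55. In all, 10 of the 19 genes changed sign, 5 lay above 0, and the median was -0.24 against 0.0013 over all features. None of the 19 passed the threshold in this fit, which called 1 feature, 0.00983% of all. Within slide 2, the groups did not overlap for UROD and SLC25A38, against 13.8% of all features.

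Among heme and erythroid genes outside the set, and among markers of other liver cells, no measured gene passed the threshold in the comparison of conditions either. None of the 8 measured haemoglobin chains had an unadjusted p under 0.05, and their median difference was 0.18, with the smallest p in HBA2, an alpha-globin gene, at 0.27 with an SE of 0.17. The gamma-globin genes HBG1 and HBG2 differed by 0.19 and 0.18. In the list of heme transport, heme breakdown and mitochondrial iron genes, 9 of 19 were measured, with a median of -0.09. The heme exporter gene FLVCR1 gave signal above background in 2 of the 6 controls and in 4 of the 5 other livers, so its fitted difference of 0.33 (limma adjusted p = 0.348) is mostly against background. ISCU, the scaffold on which iron-sulfur clusters are built, differed by -0.35 with an SE of 0.12 (limma adjusted p = 0.322), and TMEM14C, a mitochondrial porphyrin carrier, by -0.73 with an SE of 0.30 (limma adjusted p = 0.362). Of 25 measured genes among 43 other erythroid regulators and red cell genes the median was -0.01. ACHE, the red cell acetylcholinesterase, differed by 0.49, KIT, the stem cell factor receptor of early progenitors, by -0.54, and CD36, a scavenger receptor also found on erythroid progenitors and endothelium, by -0.48. All 9 measured Kupffer cell and macrophage genes lay below 0 with a median of -0.32, and 1 of them had an unadjusted p under 0.05. The 8 hepatocyte markers had a median of -0.07, the 5 neutrophil and myeloid genes -0.09, the 3 measured lymphoid genes of 8 -0.05, and the 6 measured proliferation genes of 12 -0.19. The smallest p among all these lists was that of CD79B, a chain of the B cell receptor complex, at -0.74 with an SE of 0.20 (limma unadjusted p = 0.0029, adjusted p = 0.283). CD163, a haemoglobin scavenger receptor of macrophages, was the Kupffer cell gene with an unadjusted p under 0.05, at -0.60 with an SE of 0.27. In the same list SIGLEC1 differed by -0.47 and CD68 by -0.63. The hepatocyte genes with the smallest p were APOB at 0.15, HP at -0.52 and FGB at -0.40, and the proliferation genes CDK1 at -0.40, AURKA at -0.27 and MKI67 at 0.08. The platelet genes GP1BA and TUBB1 differed by 0.25 and -0.17, the myeloid genes PRTN3, ELANE and LTF by 0.12, -0.09 and -0.07, and the lymphoid genes CD2 and CD79A by -0.05 and -0.01. With slide as a covariate HP, FGB and CD68 turned to 0.51, 0.53 and 0.16, and the hepatocyte median to 0.16. PRTN3, MKI67 and CD2 turned to -0.075, -0.14 and 0.04. The other genes named in this paragraph kept their sign, among them ACHE at 0.12, CD163 at -0.43 and CD79B at -0.58.

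The labels give the sex of each fetus, which allows a second comparison. No gene of the set passed limma's test of females against males with condition as a covariate, and 0.0491% of all features did. None of the 19 had an unadjusted p under 0.05, against 10.8% of features, and for none did the sexes not overlap, against 0.737%. The 6 genes with the smallest p were UROD, at 0.47 higher in females with an SE of 0.22 (limma adjusted p = 0.467), TFRC at 0.43 with an SE of 0.26, SLC25A38 at -0.26 with an SE of 0.14, PPOX at -0.32 with an SE of 0.18, SLC25A37 at -0.43 with an SE of 0.32 and ALAD at -0.21 with an SE of 0.17. Females were more frequent on slide 1, and with slide as a further covariate these differences were 0.10 for UROD, 0.18 for TFRC, -0.11 for SLC25A38, -0.12 for PPOX, -0.015 for SLC25A37 and -0.12 for ALAD. Without that covariate the median over the set was -0.04, the same as over all features.

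Maternal obesity could also be compared within each sex, but all control females lay on slide 1 and all maternal obese females on slide 2, so condition and slide cannot be told apart in females. In females 14 of the 19 genes lay above 0, with a median of 0.13, against 60.4% of all features and a median of 0.08. In males 13 of the 19 lay below 0, with a median of -0.21, while 57.8% of all features lay above 0, with a median of 0.06. Slide is mixed in there too, since the control male CON4 lay on slide 1. ALAS2 differed by 0.97 in females and -0.25 in males, AHSP by 0.75 and -0.58, RHAG by 0.84 and -0.39, and NFE2 by 0.65 and -0.46. The difference between the sexes did not pass for any of the 19 genes, and 0% of all features passed. For ALAS2 it was 1.23 with an SE of 1.24 (limma adjusted p = 0.893), and for UROD, the smallest p of the set, -0.96 with an SE of 0.36 (limma unadjusted p = 0.0227, adjusted p = 0.649). In females UROD differed by -0.85 and PPOX by 0.74, and in males by 0.11 and 0.37. The median difference between the sexes over the 19 genes was 0.37, against 0.008 over all features. With slide as a covariate these medians were 0.17 and -0.10. The slide term of that fit rests on CON4 against CON5 and CON6 alone.

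The clearest difference in the set was between the slides, and it was in UROD. It had levels of 7.27, 7.57, 7.07 and 6.95 on CON1 to CON4, of 6.21 and 6.05 on CON5 and CON6, and of 6.70, 6.28, 6.39, 6.66 and 6.37 on MO1 to MO5. Every array of slide 2 was below every array of slide 1, controls and maternal obese alike, and the 2 controls of slide 2 were the lowest of all. The slide means were 7.22 ± 0.27 (SD, n = 4) and 6.38 ± 0.23 (SD, n = 7). With condition as a covariate UROD was 2.12-fold lower on slide 2, a log2 difference of -1.09 with an SE of 0.19 (limma adjusted p = 0.0072). It was the 1 gene of the 19 past the threshold, against 8.35% of all features, 849 in number, and 5.43% of features called lower on slide 2, so the count in the set lay near the background. Slide 1 held controls alone, so this slide difference is that of CON5 and CON6 against CON1 to CON4. A fit of controls alone gives the same difference by design and is no second check (limma adjusted p = 0.0342, with 3.55% of features called). UROD did not pass with sex as a further covariate, at -1.01 (limma adjusted p = 0.0574), where 1.14% of features did, nor without CON6, at -1.0 (limma adjusted p = 0.0977). CON5 and CON6 were males and CON1 to CON3 females, so among controls slide and sex largely coincide.

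**Figure D5:**
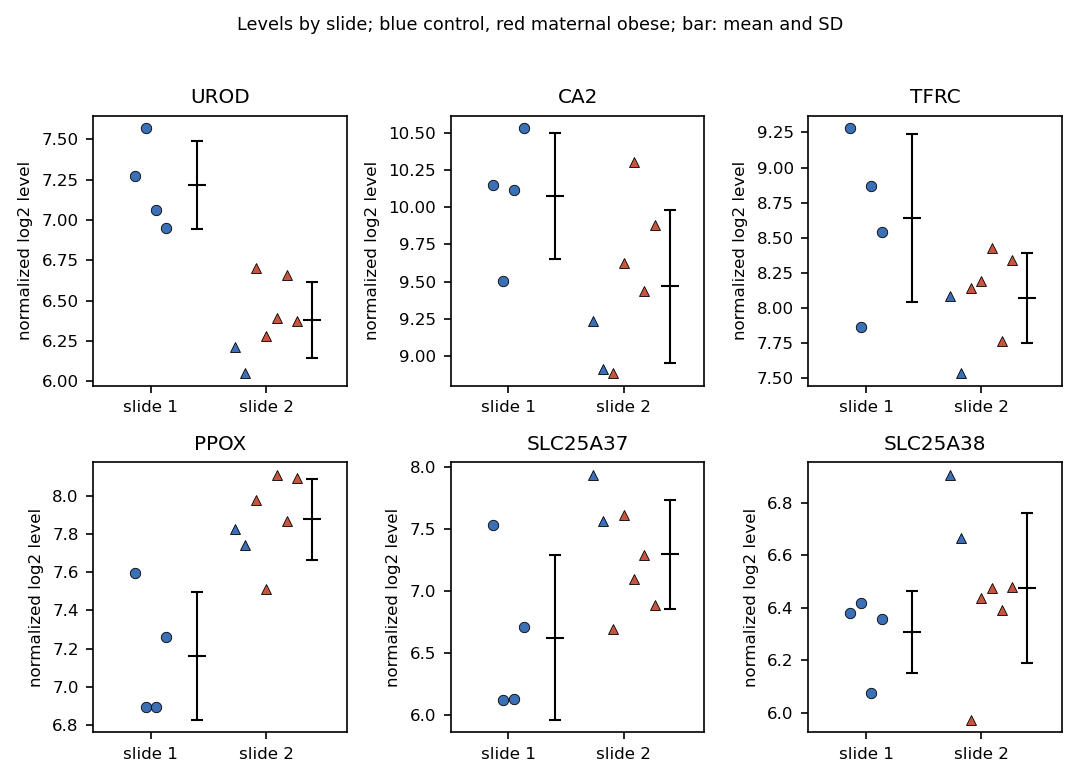
Points are the normalized log2 levels of single fetuses for UROD, CA2, TFRC, PPOX, SLC25A37 and SLC25A38, with slide 1 and slide 2 side by side, controls in blue and maternal obese fetuses in red; bars give the slide mean and SD (n = 4 and n = 7). In UROD all 7 arrays of slide 2 lie below all 4 of slide 1, and in SLC25A38 the 2 slide 2 controls stand above every other array.

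The block of genes around ALAS2 lay on the other side of 0 from UROD, unlike CA2, TFRC and BPGM. Of that block SLC25A37 is shown in the plot of levels by slide. With condition as a covariate the slide contrast sets CON5 and CON6 against CON1 to CON4, so the maternal obese arrays do not change its size. In that contrast 14 of the 19 genes were higher on slide 2, against 61.3% of all features, and the median was 0.35 against 0.11. For SLC25A37 the means over all arrays lay closer than in that contrast, at 6.62 on slide 1 and 7.30 on slide 2. SLC25A37 was higher by 1.13 with an SE of 0.36 (limma adjusted p = 0.0728), AHSP by 1.53 with an SE of 0.80, RHAG by 1.37 with an SE of 0.81, ALAS2 by 1.01 with an SE of 0.86 and NFE2 by 0.90 with an SE of 0.57, and none of them passed. CON1 of slide 1 was above every slide 2 array in ALAS2 and close to CON5, the highest of slide 2, in AHSP, RHAG and NFE2, while in SLC25A37 it lay below CON5, CON6 and MO2. Without CON1, SLC25A37 at 1.43 (limma adjusted p = 0.0174), AHSP at 2.23 (limma adjusted p = 0.0415) and PPOX at 0.77 (limma adjusted p = 0.0469) did pass. CON1 was the highest slide 1 array in each of these genes, so leaving it out raised the difference by construction. Across the fits without single arrays 44 to 945 features passed, against 849 with all arrays kept. With CON1 kept, PPOX was higher by 0.62 with an SE of 0.22 (limma adjusted p = 0.0988).

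The other 4 genes lower on slide 2 were CA2, TFRC, BLVRA and BPGM, of which BLVRA differed by -0.20 and BPGM by -0.14, and none of the 4 passed. CA2 had levels of 10.15, 9.50, 10.12 and 10.53 on CON1 to CON4, of 9.24 and 8.91 on CON5 and CON6, and of 8.88, 9.62, 10.30, 9.43 and 9.88 on MO1 to MO5. It differed by -1.0 with an SE of 0.35 (limma adjusted p = 0.0913), and a second CA2 probe gave -1.03. For CA2 the means over all arrays lay closer, at 10.07 on slide 1 and 9.47 on slide 2. TFRC had levels of 9.28, 7.86, 8.87 and 8.54 on CON1 to CON4, of 8.09 and 7.53 on CON5 and CON6, and of 8.14, 8.19, 8.43, 7.76 and 8.34 on MO1 to MO5. Its difference of -0.83 with an SE of 0.33 did not pass (limma adjusted p = 0.129), but did without CON2, at -1.09 (limma adjusted p = 0.0300). CON2 was the lowest slide 1 array in TFRC, so leaving it out widened that difference by construction. In CA2 the slide 2 levels of CON5, CON6, MO1 and MO4 lay below the slide 1 range and those of MO2, MO3 and MO5 inside it.

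SLC25A38 had levels of 6.38, 6.42, 6.08 and 6.36 on CON1 to CON4, of 6.91 and 6.67 on CON5 and CON6, and of 5.97, 6.44, 6.47, 6.39 and 6.48 on MO1 to MO5. The 2 controls of slide 2 were the highest of the 11, and the maternal obese arrays of the same slide, apart from MO1, were level with the controls of slide 1 or a little above. RHCE was detected on 0 of 4 arrays of slide 1 and 5 of 7 of slide 2. Its mean was 5.47 on slide 2 and 5.09 on slide 1, where the probe was not well above background, so the gap is no measure of size. With condition as a covariate the fitted slide difference was 0.35 and did not pass (limma adjusted p = 0.124). RHCE and UROD were the 2 genes of the 19 whose slides did not overlap, against 13% of all features. Among controls alone the slides did not overlap for 7 genes, UROD, PPOX, RHCE, SLC25A37, SLC25A38, TRIM58 and CA2, against 36.2% of all features.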

How the data were processed

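Liver RNA of 11 fetuses was measured on 1 array each. For each of 48803 probes and each array, the deposited table holds 2 values, an intensity (linear scale) and a p-value of detection. The deposited series matrix holds log2 values, which were the log2 of those intensities (largest difference 5.00e-09), so their scale and direction were settled and they were neither background-corrected nor normalized. GenomeStudio and Partek are named in the submitters' processing notes, with no role given. No column stayed unmatched (0 columns).

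Intensities were normalized with neqc of limma 3.58.1 in R 4.3.3: normexp background correction with negative controls inferred from the detection p-values, an offset of 16, and quantile normalization on the log2 scale. The detection limit (p under 0.05, 5 or more arrays) left 11475 probes. By the platform annotation, which can be out of date, 28098 probes had 1 symbol, 13 several, and 20692 were not listed. With the highest-mean probe per symbol this gave 10173 features, 8043 named and 2130 unnamed. For the 39 genes 59 probes were listed and 21 kept.

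Tests used lmFit and eBayes with Benjamini-Hochberg adjustment over all features and a threshold of 0.05. The comparison of conditions had no covariate, since the design names none, sex was tested with condition as a covariate, and contrasts within a sex came from a fit of 4 group means. SE is the moderated standard error. The fit was tested on simulated data. The genes, lists, tests and alternatives were chosen with earlier results of these data known. Every measured gene is described, and of the other lists the 3 genes with the smallest p for maternal obesity were named, besides S100A9 and the genes said to be picked after their values were seen. Alternatives covered background correction, normalization, the detection filter, the probe of a gene, sex, slide, and leaving out each array. Numbers of arrays only name them. No sequences are shown, since none were used here.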

Additional observations from a re-analysis of the deposited data

Results flagged for a closer look

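Among the 5 maternal obese arrays, 2 values stood apart from the others of their group by a gap test, out of 52 groups tested, and chance alone gives about 1 in 20. RHCE was at 5.23 on MO5, while the other 4 lay between 5.51 and 5.57, all of them close to background. SLC25A38, the mitochondrial glycine carrier, was at 5.97 on MO1, while the other 4 lay between 6.39 and 6.48.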

How the results depend on the processing

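For maternal obesity, 1 feature passed the threshold, in place of 0, with the deposited log2 values, with sex as a covariate and with slide as a covariate, and 0 to 1 when single arrays were left out (1 without CON5 or CON6). Features with an unadjusted p under 0.05 numbered 561 with the deposited values, 3193 of 39557 with no detection filter, 787 with slide, 500 with slide and sex, 498 with slide as a random block, 845 on slide 2 alone, 584 in slide 2 males, and 822 to 2121 when arrays were left out (822 without CON3, 865 without MO4, 2121 without CON6). None of the 19 genes passed under any of these settings. GATA1 turned to 0.0157 without background correction, 0.1633 with median scaling and 0.1069 with the deposited values, where AHSP was -0.0166. With slide as a covariate, as on slide 2 alone, the turned values were ALAS1 -0.0711, ALAS2 -0.2826, UROD 0.3509, RHAG -0.6721, NFE2 -0.4565, AHSP -0.9004, TFRC 0.3646, SLC25A37 -0.6358, TRIM58 -0.0362 and CA2 0.5490. With slide and sex they were ALAS1 -0.0488, ALAS2 -0.2629, UROD 0.2909, RHAG -0.6901, RHCE -0.0212, NFE2 -0.6317, AHSP -1.0695, TFRC 0.2586, SLC25A37 -0.6268, TRIM58 -0.2129 and CA2 0.7096. With slide as a random block they were RHAG -0.1955, NFE2 -0.1425, AHSP -0.3679, TFRC 0.0766, SLC25A37 -0.2447 and CA2 0.2025. In slide 2 males they were ALAS1 -0.0104, ALAS2 -0.4529, UROD 0.3853, RHAG -0.7891, RHCE -0.0457, NFE2 -0.7536, AHSP -1.1229, TFRC 0.2409, SLC25A37 -0.6660, TRIM58 -0.2032 and CA2 0.5816. Leaving out single arrays moved AHSP from -0.2989 to 0.4510, ALAD from -0.2070 to 0.0094, ALAS2 from -0.0013 to 0.7542, CA2 from -0.2859 to 0.0689, FECH from -0.1103 to 0.0226, GATA1 from -0.0978 to 0.1163, NFE2 from -0.0832 to 0.3756, RHAG from -0.1301 to 0.5779 and SLC25A37 from -0.0598 to 0.3024. The slide fits rest on CON5 and CON6, and the cause of the other turns was not tested. For sex, 3 features passed without background correction, 2 with no detection filter and 3 to 5 when arrays were left out, in place of 5. For slide, 116 passed with sex as a further covariate, 361 in controls alone, and 44 to 945 when arrays were left out (44 without CON6, 194 without CON5, 456 without CON3). UROD was at -1.0110 with sex (limma adjusted p = 0.0574), BLVRA ran from -0.7166 to 0.3221 and BPGM from -0.5344 to 0.2589. The labels pair no control fetus with a maternal obese fetus, so no paired analysis was run. Faint genes such as RHCE and GATA1 lie near background, where differences are compressed.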

Other observations

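The genes outside the set whose levels followed ALAS2 most closely, picked after their values were seen, were mostly globins. The correlation over 11 arrays was 0.945 for HBM, 0.932 for the embryonic chain gene HBE1, 0.923 for HBG1, 0.917 for FHDC1, 0.913 for HBG2 and 0.908 for XPO7, a nuclear transport receptor gene. Globin probes may bind several chains. HBE1 read 9.34 on CON1, 8.63 on CON5 and 8.82 on MO2, against 5.49 on CON2 and 5.52 on CON3, so the embryonic chain's signal had the same high and low livers as ALAS2. CAMP, an antimicrobial peptide of neutrophil granules, followed at 0.889 and MMP9, a neutrophil gelatinase, at 0.837. MPO, the peroxidase of neutrophil granules and likewise picked after its values were seen, read 9.73 on CON1 and 9.10 on CON5 against 6.18 on CON3, but also 9.13 on CON4 and 9.05 on MO5, where ALAS2 was at 9.26 and 9.36.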
